A study of Mus musculus with 54 samples.

Results

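Iron handling was followed through 10 genes, Hamp, Hamp2, Hfe, Tfrc, Tfr2, Slc40a1, Fth1, Ftl1, Bmp6 and Smad7. They were chosen by gene symbol, and all 10 were found among the 18079 genes of the deposited expression table. All 10 also passed the filter on low values, a mean of at least 0.5 FPKM (fragment counts scaled to transcript length and library size) over all libraries, which kept 11759 genes.

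The table covered 54 livers of female C57BL/6J mice aged 8 to 12 weeks, fed normal chow ad libitum under 12 h of light and 12 h of dark. There were 3 genotypes. WT mice were wild type, KO mice lacked the core clock factor BMAL1, and Liver-RE mice, labelled BMAL1-stop-FL, had BMAL1 put back in liver alone. The promoter and the cells in which this was done were not given in the sources used here. Livers were taken at 6 zeitgeber times (ZT, hours after lights on), ZT0, ZT4, ZT8, ZT12, ZT16 and ZT20, from 3 mice per time and genotype, which gave 18 groups and 18 libraries per genotype. Whole liver RNA was depleted of ribosomal RNA and sequenced with a stranded kit.

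Systemic iron is set by hepcidin, a peptide hormone that hepatocytes secrete and that binds ferroportin, the iron exporter of macrophages, enterocytes and hepatocytes, and sends it to degradation. Hepatocytes read iron stores through BMP6, which endothelial cells of the liver sinusoids make, and through the membrane proteins HFE and transferrin receptor 2. The signal runs through SMAD proteins to the hepcidin promoter, and SMAD7 is an inhibitor that the same signal induces. Inside cells, iron regulatory proteins bind stem-loops in messenger RNAs, called iron-responsive elements, which protect transferrin receptor transcripts and hold back translation of ferritin and ferroportin when iron is scarce. In mice hepcidin is encoded by Hamp, and the neighbouring Hamp2 encodes a closely related peptide.

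Iron-responsive elements are printed here because a match to their core divides the set into genes with and without one. The strict pattern can miss elements of another form, so a gene without a match may still have this control. The core searched was a 6-base loop, CAGTGN, on a paired stem with an unpaired C, in the annotated transcript on GRCm38. It was present in 1.24% of protein-coding genes (271 of 21877) and in 4 of the 10 genes. Each site below runs 5′ to 3′ over 29 bases, with the loop in capitals.
Tfrc site 1, 3′ UTR, chr16:32631219-32631247, plus strand: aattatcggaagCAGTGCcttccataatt
Tfrc site 2, 3′ UTR, chr16:32631598-32631626, plus strand: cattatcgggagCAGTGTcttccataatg
Tfrc site 3, 3′ UTR, chr16:32631663-32631691, plus strand: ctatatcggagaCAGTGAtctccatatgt
Tfrc site 4, 3′ UTR, chr16:32631710-32631738, plus strand: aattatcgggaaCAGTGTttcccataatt
Slc40a1, 5′ UTR, chr1:45925465-45925493, minus strand: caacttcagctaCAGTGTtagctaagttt
Fth1, 5′ UTR, chr19:9982732-9982760, plus strand: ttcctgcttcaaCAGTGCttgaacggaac
Ftl1, 5′ UTR, chr7:45459779-45459807, minus strand: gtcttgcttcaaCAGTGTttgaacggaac
In Tfrc 4 sites matched, all after the coding sequence, whereas Slc40a1, Fth1 and Ftl1 had 1 match each, before it. The search found no such core in the transcripts of Hamp, Hamp2, Bmp6, Hfe, Tfr2 and Smad7. The transcript of Hfe searched first had 516 bases, and its longest, of 3572 bases, held none either. These sites act on RNA stability or translation, and RNA sequencing does not measure translation.

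The promoters of Hamp and Hamp2 are shown because the levels of these neighbours differed between genotypes in unlike ways, Hamp lower in both mutants than in WT and Hamp2 lower in KO than in both other genotypes. Each run is the 250 bases before the RefSeq start (GRCm38.p6), 5′ to 3′ on the minus strand. Capitals mark GGCGCC, the palindrome of BMP response elements, and TTCNNNGAA, the form bound by STAT proteins.
Hamp, chr7:30944030-30944279: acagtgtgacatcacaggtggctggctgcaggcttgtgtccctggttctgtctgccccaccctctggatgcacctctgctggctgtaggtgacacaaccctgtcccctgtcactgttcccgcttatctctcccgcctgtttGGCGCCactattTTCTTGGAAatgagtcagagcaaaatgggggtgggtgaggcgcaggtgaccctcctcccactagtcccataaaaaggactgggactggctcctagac
Hamp2, chr7:30924182-30924431: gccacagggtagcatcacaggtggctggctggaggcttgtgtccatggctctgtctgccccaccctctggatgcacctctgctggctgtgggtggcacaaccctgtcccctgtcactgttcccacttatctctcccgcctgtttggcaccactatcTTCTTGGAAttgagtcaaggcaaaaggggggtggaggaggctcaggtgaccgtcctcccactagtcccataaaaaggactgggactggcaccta
Both windows held TTCTTGGAA, and GGCGCC was present in the Hamp window and not in that of Hamp2. Over all 32851 promoter windows of this length, searched on both strands, GGCGCC occurred in 9.59% and TTCNNNGAA in 7.02%. Windows were matched for 8 of the 10 genes. Besides Hamp, GGCGCC occurred in a Tfrc window. The canonical E-box CACGTG, the motif of CLOCK and BMAL1, occurred in the Bmp6 window and in 6.02% of all windows. Neither the D-box TTATGTAA (0.819% of all windows) nor the ROR core TAGGTCA (2.23%) occurred in the windows of the 8 genes. These matches describe letters and not binding.

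Hamp lies at chr7:30942368-30944029 and Hamp2 at chr7:30922372-30924181. Their coding sequences were identical at 236 of 252 bases (93.7%), and 90 of the 223 words of 30 bases in the Hamp coding sequence also occurred in that of Hamp2. Reads from such stretches fit both genes, and their assignment was not given in the sources used here, so each value of the pair is uncertain to that extent. Fth1 and Ftl1 have processed pseudogenes, and their values carry the same reservation. Bmp6 shares its last 49 annotated bases with Txndc5, a more abundant gene at a mean of 41.9 FPKM on the opposite strand, and Smad7 shares 163 with the noncoding gene Gm41776. Whether counting used strand was not given in the sources used here. RefSeq places the others at chr13:38345716-38500314 (Bmp6), chr13:23702034-23710854 (Hfe), chr5:137569822-137588081 (Tfr2), chr16:32608896-32632794 (Tfrc), chr1:45908070-45926532 (Slc40a1), chr19:9980600-9985111 (Fth1) and chr7:45457944-45459886 (Ftl1), on GRCm38.p6.

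Sequencing depth, estimated from the step that a single read makes in low values, was 24.5 to 42.7 M reads per library (31.1 ± 4.05, mean ± SD, n = 54). Albumin took 10.2% ± 1.20 of the summed FPKM in WT, 9.57% ± 1.63 in Liver-RE and 4.82% ± 0.920 in KO (SD, n = 18 each), and all 15 hepatocyte markers were past the filter. Arntl, the gene of BMAL1, was listed at 6.26 to 8.74 FPKM in KO livers, so its total level does not check the KO label. It ran from 0.350 to 12.1 FPKM in WT and from 0.894 to 10.7 FPKM in Liver-RE over the day. In 2 libraries, WT ZT8 replicate 2 and Liver-RE ZT0 replicate 3, Arntl stood more than 4-fold apart from both group mates, and results that changed without both are named.

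Levels across genes are compared per transcript length, in FPKM. In WT, Hamp was the most abundant of the 10 genes at 775 ± 306 FPKM (SD, n = 18, all times), followed by Ftl1 at 574 ± 80.5 and Hamp2 at 528 ± 215. Fth1 stood at 296 ± 19.2 FPKM. Ranges of Hamp, Ftl1 and Hamp2 overlapped, so their order is not firm, and Fth1 varied least between WT mice. Slc40a1 reached 74.9 ± 13.3 FPKM and Tfr2 64.2 ± 8.06 FPKM, which also overlapped. Hfe (11.4 ± 1.45 FPKM) and Tfrc (7.45 ± 4.68 FPKM) came next, again with overlapping ranges. Smad7 (2.41 ± 0.743 FPKM) and Bmp6 (1.52 ± 0.304 FPKM) were the least abundant.

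Genotypes were compared in level, meaning the mean over the day, and in rhythm, meaning a 24 h cosine fitted to each genotype, with limma on log2(FPKM + 1) and p-values adjusted over all 11759 genes by Benjamini-Hochberg. Fold changes are on that scale, which understates changes of genes near 1 FPKM. Of the 10 genes, 5 differed in level between KO and WT at an adjusted p under 0.05, 4 lower and 1 higher, where 30% of all genes did so (13.5% lower, 16.5% higher). Between Liver-RE and WT 4 differed, all lower, against 7.06% of all genes (5.88% lower, 1.18% higher). Between Liver-RE and KO 4 differed, 3 lower and 1 higher, against 34.1% (26.7% lower, 7.42% higher). The median log2 difference of the 10 genes was -0.13 for KO against WT, -0.09 for Liver-RE against WT and -0.13 for Liver-RE against KO, where the medians of all genes were 0.02, -0.06 and -0.07. With quantile normalization the split of all calls moved from 139 higher and 691 lower to 247 and 266 for Liver-RE against WT, and from 873 and 3134 to 1457 and 1643 for Liver-RE against KO. Leaving out the 20 most abundant genes and rescaling gave 187 and 290, and 1248 and 1630. Both comparisons with WT use the same WT libraries, so their values are given side by side.

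**Figure D1:**
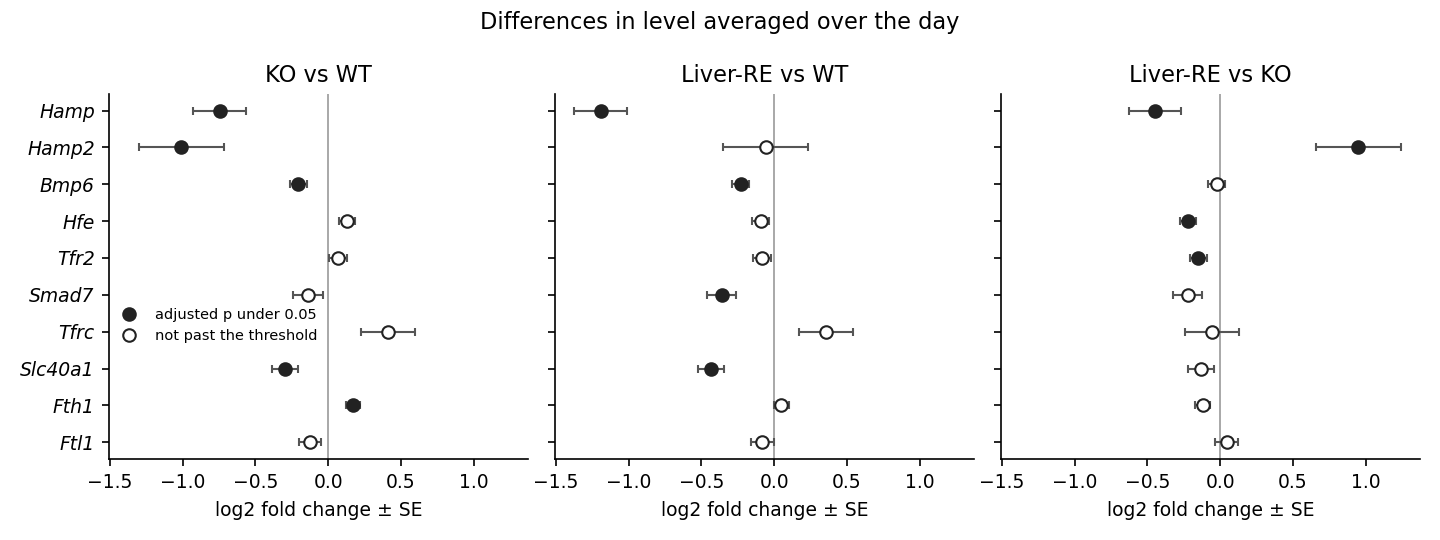
Differences in level averaged over the day for the 10 genes, as log2 fold changes on the log2(FPKM + 1) scale (horizontal axis) with standard errors as bars, in a panel for each pair of genotypes. Filled points have an adjusted p under 0.05; Hamp lies left of 0 in all 3 panels, and Hamp2 lies left in the first and right in the third.

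Hamp, the hepcidin gene, was lower in both mutant genotypes than in WT. Its lowest, median and highest values over 18 livers were 333, 773 and 1587 FPKM in WT, 186, 528 and 671 FPKM in KO, and 116, 362 and 582 FPKM in Liver-RE. The ranges overlapped over the whole day, and the median of WT lay above the highest value of either mutant. The log2 difference was -0.75 ± 0.18 (SE) for KO against WT, a ratio of 0.596 (adjusted p = 0.00109). For Liver-RE against WT it was -1.19 ± 0.18, a ratio of 0.438 (adjusted p = 1.10e-05). Both calls held under each alternative setting run and on leaving out each library in turn.

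By time, all 3 KO values of Hamp lay under all 3 WT values at 3 of 6 times, ZT12, ZT16 and ZT20. Over all genes and times, KO lay under WT without overlap in 12% of cases and above it in 13.9%. All 3 Liver-RE values of Hamp lay under all WT values at 4 times, ZT8, ZT12, ZT16 and ZT20, against 12.7% of cases over all genes. At ZT20 the WT livers had 1587, 1082 and 1052 FPKM, the KO livers 424, 195 and 671 FPKM and the Liver-RE livers 349, 187 and 170 FPKM. The 3 WT livers at this time had the highest Hamp values of the 18 WT livers. At ZT4 the genotypes could not be ordered. WT had 662, 390 and 333 FPKM, KO 586, 538 and 514 FPKM and Liver-RE 582, 246 and 517 FPKM, and all groups overlapped.

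The time course of Hamp also differed between KO and WT. The fitted peak stood at ZT16.6 in WT, with a log2 peak-to-trough difference of 0.91, and at ZT5.25 in KO, with 1.02. The WT mean went from 461 ± 176 FPKM at ZT4 to 1240 ± 300 FPKM at ZT20 (SD, n = 3), and the KO mean from 546 ± 36.9 at ZT4 and 573 ± 50.7 at ZT8 to 255 ± 86.9 at ZT16. Hamp was the only 1 of the 10 genes whose rhythm differed between KO and WT (adjusted p = 0.0334), where 7.78% of all genes did. No genotype's own rhythm of Hamp passed the threshold (WT adjusted p = 0.131, KO 0.466, Liver-RE 0.121). In Liver-RE the fitted peak stood at ZT8.52 with a log2 peak-to-trough difference of 1.12, and the difference in rhythm from WT missed the threshold (adjusted p = 0.0839). The difference between KO and WT was lost without the filter on low values (adjusted p = 0.0536) and without any 1 of 6 libraries, WT ZT4 replicates 2 and 3, WT ZT20 replicate 1, KO ZT16 replicates 2 and 3 and KO ZT20 replicate 2, with adjusted p between 0.0160 and 0.0798 over all libraries left out.

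**Figure D2:**
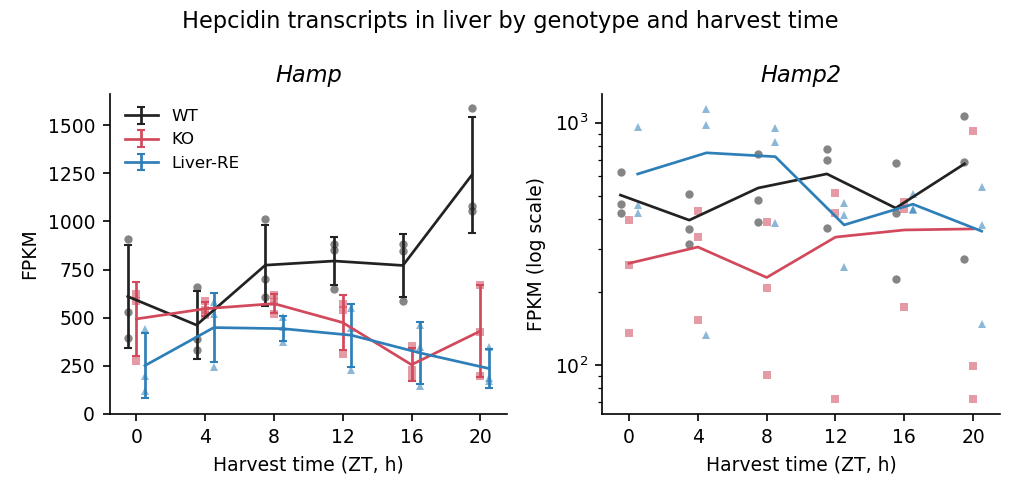
FPKM of Hamp (linear axis) and Hamp2 (log axis) by harvest time in WT, KO and Liver-RE livers; points are single livers, 3 per time, lines join means, and bars on the Hamp panel are SD. The WT line of Hamp is highest at ZT20, at a mean of 1240 FPKM, where both mutant lines lie below 671 FPKM.

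Between Liver-RE and KO, Hamp was lower by a log2 difference of -0.45 ± 0.18 (adjusted p = 0.0491). This call was lost without the filter (0.0707), with quantile normalization (0.0893), without the 20 most abundant genes (0.135), with only the genotypes concerned (0.0628), and on leaving out any 1 of 35 of the 54 libraries (adjusted p from 0.0268 to 0.0953 over all 54 left out in turn).

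Hamp2 was lower in KO than in both other genotypes. Its lowest, median and highest values were 227, 470 and 1064 FPKM in WT, 72.0, 297 and 921 FPKM in KO, and 132, 449 and 1143 FPKM in Liver-RE. All ranges overlapped widely. The log2 difference of KO from WT was -1.01 ± 0.29 (adjusted p = 0.00610), and that of Liver-RE from KO was 0.95 ± 0.29 (adjusted p = 0.00944), where the difference of Liver-RE from WT was -0.06 ± 0.29 (adjusted p = 0.919). Accordingly the ratio of Hamp to Hamp2 within a liver had a median of 1.41 for WT, 1.55 for KO and 0.621 for Liver-RE. Hamp exceeded Hamp2 in 16 of 18 WT, 15 of 18 KO and 6 of 18 Liver-RE livers.

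The spread of Hamp2 in KO followed replicate number, a pattern noticed after its values were seen. The KO library numbered 2 was the lowest of its 3 at 6 of 6 times. These 6 libraries ran from 72.0 to 173 FPKM with a median of 113 FPKM, and the other 12 KO libraries from 98.7 to 921 FPKM with a median of 410 FPKM. The median was 434 FPKM in KO replicate 1 and 297 FPKM in KO replicate 3. In WT replicates 1, 2 and 3 it was 523, 466 and 470 FPKM. The calls of a lower Hamp2 level in KO were not tested without all 6 KO libraries numbered 2. The labels do not say what the number stands for. No fitted rhythm of Hamp2 passed the threshold in any genotype.

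Among the genes of hepcidin control, Bmp6, the ligand made by sinusoidal endothelium, was lower in both mutant genotypes. Its values ran from 0.782 to 2.04 FPKM in WT (median 1.53), from 0.917 to 1.55 in KO (median 1.13) and from 0.80 to 1.93 in Liver-RE (median 1.09). The groups overlapped at 4 of 6 times against KO and at 3 of 6 against Liver-RE, with WT higher at the rest. Over all genes and times, KO lay under WT without overlap in 12% of cases and Liver-RE in 12.7%. The log2 differences were -0.21 ± 0.06 for KO (adjusted p = 0.00439) and -0.23 ± 0.06 for Liver-RE (adjusted p = 0.00911), and the latter was lost with quantile normalization (0.0653). Of 15 liver endothelial markers, none at 0 in all libraries, 1 was higher and 2 were lower in each of KO and Liver-RE against WT. Over all genes, the share called against WT was 30% for KO and 7.06% for Liver-RE. The list's median log2 difference was -0.12 in KO and -0.16 in Liver-RE (0.02 and -0.06 over all genes). At an unadjusted p under 0.05 by limma stood 6 of the 15 markers in KO, 2 of them higher. In Liver-RE 10 of the 15 did, 1 of them higher. Their summed level was 210 to 304 FPKM in WT, 180 to 373 in KO and 162 to 273 in Liver-RE, and its part in the Bmp6 result was not tested. In whole liver, fewer cells of a type and less RNA per cell cannot be told apart.

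Smad7, the inhibitory SMAD, was lower in Liver-RE than in WT. WT livers had 1.61 to 4.03 FPKM (median 2.11), KO livers 0.690 to 4.73 (median 2.08) and Liver-RE livers 1.12 to 2.59 (median 1.54). The ranges overlapped, and no Liver-RE liver exceeded 2.59 FPKM. The log2 difference was -0.36 ± 0.10 for Liver-RE against WT (adjusted p = 0.0212), lost without the 20 most abundant genes (0.0763). Neither the difference of KO from WT, -0.14 ± 0.10 (adjusted p = 0.311), nor that of Liver-RE from KO, -0.22 ± 0.10 (adjusted p = 0.0807), passed the threshold. The latter became a call without KO ZT16 replicate 3 or Liver-RE ZT0 replicate 3 (lowest adjusted p 0.0191), and without both livers in which Arntl stood apart (0.0439).

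Hfe and Tfr2, which encode the membrane sensors of transferrin-bound iron, were lower in Liver-RE than in KO. Hfe ran from 8.73 to 13.7 FPKM in WT (median 11.6), from 9.94 to 14.8 in KO (median 12.7) and from 7.97 to 13.2 in Liver-RE (median 10.4). At 3 of 6 times all Liver-RE values of Hfe lay under all KO values. Over all genes 15.5% of cases were lower in Liver-RE than in KO without overlap. The log2 difference was -0.22 ± 0.06 (adjusted p = 0.00208). For KO against WT it was 0.13 ± 0.06 (adjusted p = 0.0829), which became a call without WT ZT8 replicate 2 or KO ZT0 replicate 3 (lowest adjusted p 0.0375), and without both livers in which Arntl stood apart (0.0483). Tfr2 ran from 49.8 to 82.1 FPKM in WT, from 51.9 to 79.1 in KO and from 47.7 to 74.4 in Liver-RE. Its log2 difference of -0.15 ± 0.06 between Liver-RE and KO (adjusted p = 0.0439) was lost under 4 settings: no filter (0.0538), quantile normalization (0.293), without the 20 most abundant genes (0.362) and only the genotypes concerned (0.0579). It was also lost on leaving out any 1 of 17 libraries, all of them KO or Liver-RE (adjusted p from 0.0219 to 0.0877 over all 54 left out in turn).

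**Figure D3:**
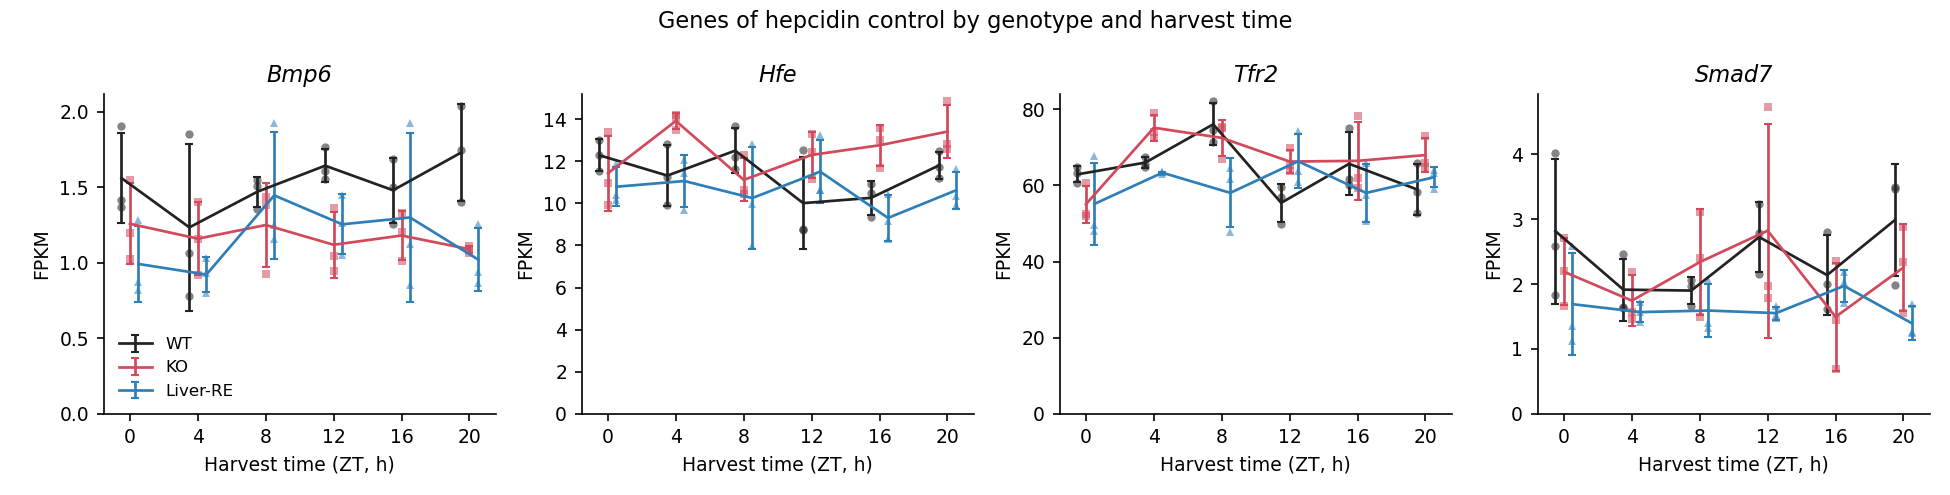
FPKM of Bmp6, Hfe, Tfr2 and Smad7 by harvest time in WT, KO and Liver-RE livers; points are single livers, 3 per time, lines join means and bars are SD. Most groups overlap; WT lies above the other lines of Bmp6 at all 6 times, and KO lies above Liver-RE for Hfe at all 6 times.

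Tfrc, which encodes transferrin receptor 1 for iron uptake, was the only 1 of the 10 genes with a rhythm past the threshold in WT, where 23.5% of all genes had one. WT livers at ZT12 had 14.2, 21 and 15.2 FPKM, and the other 15 WT livers had 2.70 to 9.20 FPKM. The ZT12 group lay above all other WT livers without overlap. The fitted curve peaked at ZT13.5 with a peak-to-trough ratio of 2.50 (adjusted p = 0.0219). It was lost without WT ZT4 replicate 3 or any of the 3 WT ZT12 livers (adjusted p from 0.0116 to 0.0869 over all 54 libraries left out in turn), and the fitted peak stayed between ZT13.1 and ZT13.8. A test between the 6 times without a cosine also called Tfrc in WT (adjusted p = 0.00621).

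In Liver-RE the highest mean of Tfrc was also at ZT12, 16.7 FPKM against 16.8 in WT, with overlapping groups. In KO the highest mean was at ZT16, 16.4 FPKM against 7.37 in WT, without overlap. KO lay above WT without overlap at 3 of 6 times, ZT0, ZT16 and ZT20, and under it at 1, ZT12. The shares of cases over all genes and times were 13.9% above and 12% under. KO livers at ZT16 had 9.28, 17.9 and 22.1 FPKM, and at ZT8 3.32, 7.54 and 3.44 FPKM. In Liver-RE, ZT12 livers had 8.44, 28.0 and 13.5 FPKM and ZT16 livers 7.04, 4.73 and 3.94 FPKM. Within a time, the median coefficient of variation of Tfrc, whose differences between genotypes were not tested, was 21.7% for WT mice, 30.8% for KO mice and 38.8% for Liver-RE mice. Fitted peaks stood at ZT17.0 in KO (ratio 2.02, adjusted p = 0.491) and ZT7.42 in Liver-RE (ratio 1.94, adjusted p = 0.225), and neither passed the threshold.

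No difference in Tfrc rhythm between genotypes passed the threshold, at adjusted p = 0.334 for KO against WT, 0.135 for Liver-RE against WT and 0.162 for Liver-RE against KO. That of Liver-RE from WT became a call with a mean per group in the model (0.0486) and without Liver-RE ZT4 replicate 3 (0.0284). In level, Tfrc differed from WT by 0.41 ± 0.19 in KO (adjusted p = 0.0903) and by 0.35 ± 0.19 in Liver-RE (0.227). The first became a call with a mean per group (0.0403), with only KO and WT in the model (0.0486) and without WT ZT12 replicate 2 (0.0491). Erythroid cells carry much transferrin receptor, and 10 of 14 erythroid markers were in the table, 4 of them past the filter, none at 0 in all libraries. The sum of the 10 was 5.10 to 21.9 FPKM in WT (median 10.3). It was 9.25 to 27.2 FPKM in KO (median 17.3) and 11.1 to 29 FPKM in Liver-RE (median 15.9). Only 1 of the 4, Alas2, was called against WT, higher in both mutants. The median log2 difference of the 4 was -0.012 for KO and -0.0055 for Liver-RE (0.02 and -0.06 over all genes). The part of erythroid cells in the Tfrc values was not tested.

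Across the 10 genes, limma called no rhythm in KO, where Hamp and Tfrc (2 genes) had an unadjusted p under 0.05 and 0% of all genes were called. In Liver-RE it called none of the 10, with 3 at an unadjusted p under 0.05 (Hamp, Bmp6 and Tfrc), against 3.82% of all genes. The test between times without a cosine also called 0 in both. Differences in rhythm of Liver-RE from WT (3.51% of all genes) and from KO (0.238%) were called for 0 of the 10, with 2 genes each at an unadjusted p under 0.05, Hamp and Tfrc for WT and Tfrc and Ftl1 for KO.

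Slc40a1, the gene of the exporter ferroportin, was lower in both mutants than in WT. Values ran from 54.6 to 106 FPKM in WT (median 74.2), from 43.7 to 99.9 in KO (median 59.1) and from 29.7 to 80.0 in Liver-RE (median 54.7). KO lay under WT without overlap at 3 of 6 times and Liver-RE at 2 of 6, against 12% and 12.7% of cases over all genes and times. The log2 differences were -0.30 ± 0.09 for KO (adjusted p = 0.00916) and -0.43 ± 0.09 for Liver-RE (adjusted p = 0.00166), and both were called under each alternative run and with each library left out. Its rhythm difference between KO and WT missed the threshold (adjusted p = 0.127) and was called with quantile normalization (0.0394).

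Kupffer cells, the macrophages of the liver, are rich in ferroportin, and their markers moved in the same direction. Among the 14 markers of Kupffer cells and macrophages, KO had 11 lower than WT and Liver-RE had 5, with none higher. Over all genes 13.5% were lower in KO and 5.88% in Liver-RE. No marker was at 0 in all libraries. Summed, they reached 354 to 504 FPKM in WT livers, 217 to 496 in KO livers and 215 to 536 in those of Liver-RE. The median log2 difference of the list was -0.34 for KO and -0.28 for Liver-RE (0.02 and -0.06 over all genes). The part of these cells in the Slc40a1 result was not tested.

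**Figure D4:**
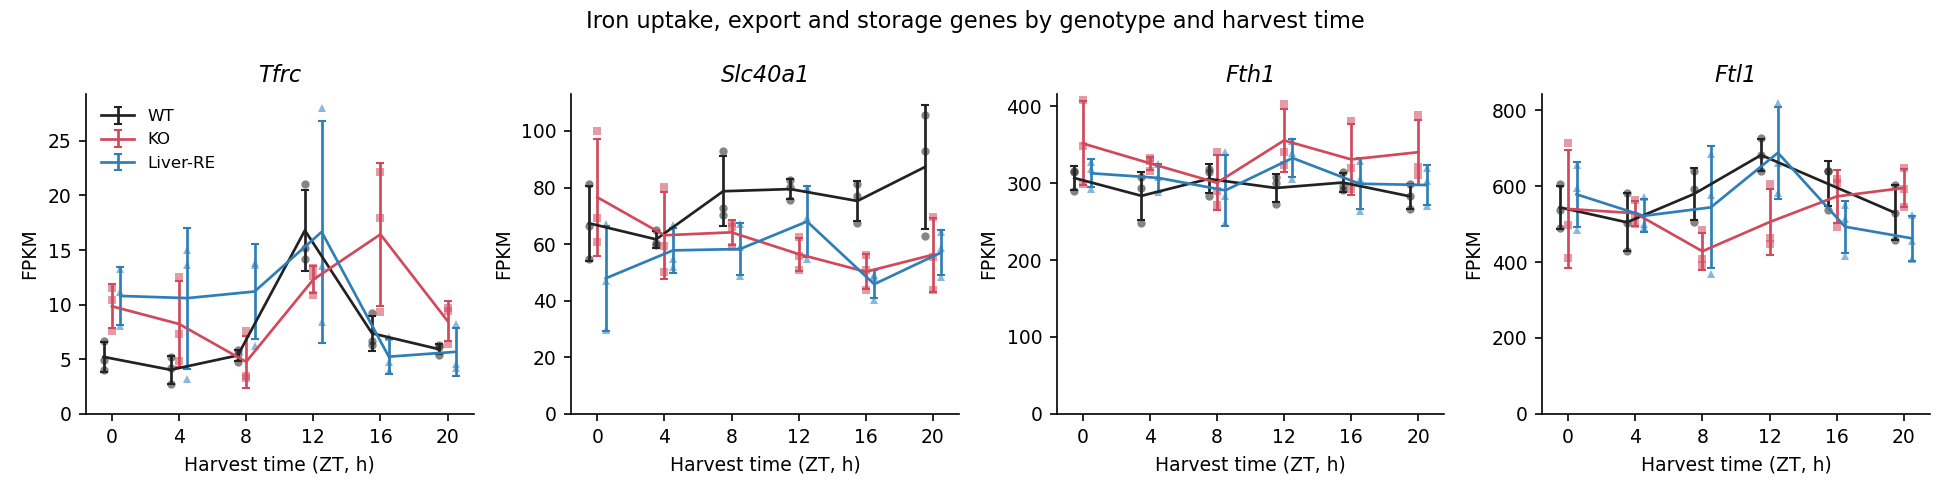
FPKM of Tfrc, Slc40a1, Fth1 and Ftl1 by harvest time in WT, KO and Liver-RE livers; points are single livers, 3 per time, lines join means and bars are SD. The WT and Liver-RE lines of Tfrc are both highest at ZT12, at means of 16.8 and 16.7 FPKM, the KO line at ZT16, and the KO line of Fth1 lies above WT at 5 of 6 times.

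The ferritin subunits, which store iron as heavy (Fth1) and light (Ftl1) chains, differed little. Fth1 ran from 248.8 to 319 FPKM in WT (median 298), from 271 to 408 in KO (median 326) and from 248 to 354 in Liver-RE (median 306). KO lay above WT without overlap at 3 of 6 times, against 13.9% of cases over all genes and times. The log2 difference was 0.17 ± 0.05 for KO against WT (adjusted p = 0.00864) and 0.05 ± 0.05 for Liver-RE against WT (adjusted p = 0.564). For Liver-RE against KO it was -0.12 ± 0.05 (adjusted p = 0.0622), which became a call on leaving out any 1 of 7 libraries, KO ZT0 replicate 1, KO ZT8 replicate 3, KO ZT16 replicate 2, KO ZT20 replicate 2, Liver-RE ZT8 replicate 3 and Liver-RE ZT12 replicates 1 and 3 (lowest adjusted p 0.0338). Ftl1 ran from 430 to 726 FPKM in WT, from 393 to 714 in KO and from 370 to 821 in Liver-RE, and none of its differences in level was called. Within a liver the ratio of Ftl1 to Fth1 was 1.94 ± 0.254 for WT, 1.58 ± 0.223 for KO and 1.78 ± 0.294 for Liver-RE (SD, n = 18), with overlapping ranges.

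Over the 18 group means of log2 values, the gene most like Hamp among all genes of sufficient level was Slc40a1 (Pearson r = 0.879), followed by Heca (0.868), Spic (0.850), Npc2 (0.834) and Pla2r1 (0.832). Spic was listed at a mean of 1.69 FPKM for WT, 1.19 for KO and 1.11 for Liver-RE. Closest to Slc40a1 were Hamp, Heca (0.877), Cfp (0.858), Slc31a2 (0.853) and Snx5 (0.849). For Tfrc they were Nudt19 (0.899), Zfp970 (0.891), Ndufv2 (0.851), Lyar (0.845) and Mtfp1 (0.836). These are descriptions over 18 points that share libraries and genotype differences, and each list is the top of a search through many genes.

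**Figure D5:**
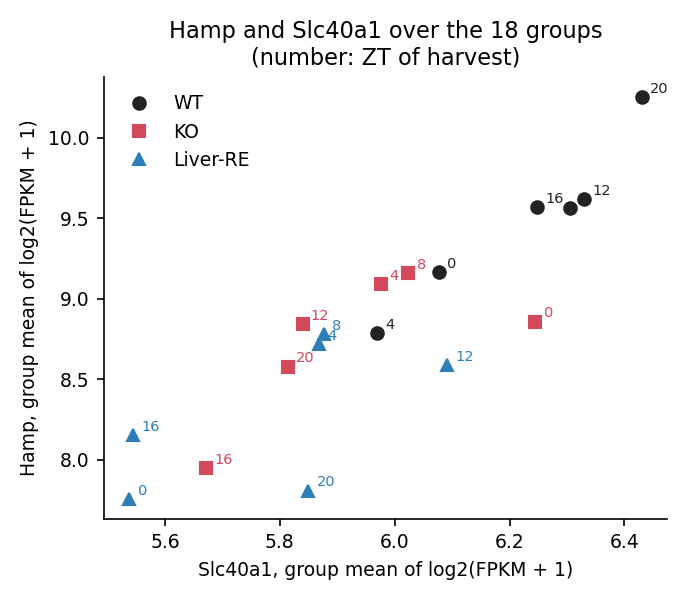
Group means of log2(FPKM + 1) of Hamp (vertical axis) against Slc40a1 (horizontal axis) for the 18 groups, with the harvest time printed beside each point. The points rise together (r = 0.879, a description), and the WT group at ZT20 lies at the upper right.

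Within groups, none of 8 partners of Hamp passed the test for correlation. After subtracting each group's mean, Hamp and Hamp2 had r = 0.307 (permutation p = 0.10) and Spearman's rho = 0.318 (permutation p = 0.0501) over 54 livers, and r = 0.255 without the 2 most extreme. Within genotypes r was 0.254 (WT), 0.375 (KO) and 0.286 (Liver-RE). Hamp and Id1, a target of BMP signalling, had r = 0.278 (permutation p = 0.0633) and rho = 0.339 (permutation p = 0.0301), and r = 0.237 without the 2 most extreme. For this pair the values were 0.506 (WT), 0.0152 (KO) and 0.450 (Liver-RE). For Smad7, Bmp6, Tfr2, Tfrc, Saa1 and Socs3, r lay between -0.124 and 0.209. After adjustment over the 8 pairs the lowest permutation p was 0.401 for r and 0.200 for rho.

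Other genes of the hepcidin BMP-SMAD axis were counted from a list of 31, of which 27 were tested. Against WT, KO had 2 higher and 10 lower. Liver-RE had 7 lower and 0 higher, with 0 higher also at an unadjusted p under 0.05 by limma. Over all genes the calls for KO were 16.5% upward and 13.5% downward, and those for Liver-RE 1.18% and 5.88%. The list's median log2 difference was -0.12 in both mutants, against all-gene medians of 0.02 (KO) and -0.06 (Liver-RE). Bmp4, another BMP ligand, was lower in KO (-0.33 ± 0.06, adjusted p = 7.71e-06) and in Liver-RE (-0.24 ± 0.06, adjusted p = 0.00494). Tmprss6, the protease that cleaves hemojuvelin and so restrains hepcidin, was higher in KO (0.30 ± 0.06, adjusted p = 2.01e-05) and lower in Liver-RE than in WT (-0.17 ± 0.06, adjusted p = 0.0423). The shared SMAD partner Smad4 (-0.23 ± 0.04) and the activin receptor Acvr2b (-0.25 ± 0.05) were lower in KO, at adjusted p = 6.72e-05 and 0.000125, and neither was called in Liver-RE against WT.

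Rhythm was called in WT for 7 of these 27 genes, a share near the 23.5% of all genes. By limma it was called for 0 in KO and 0 in Liver-RE, where 0 and 5 genes had an unadjusted p under 0.05. The shares of all genes with a called rhythm were 0% in KO and 3.82% in Liver-RE. Hfe2, the gene of the BMP co-receptor hemojuvelin, had a peak-to-trough ratio of 2.31 in WT with its peak at ZT23.6 (adjusted p = 0.00230). Its rhythm differed between KO and WT (adjusted p = 0.0129). Smad5 had a ratio of 1.33 in WT with its peak at ZT8.72 (adjusted p = 0.00416), and its rhythm also differed between KO and WT (adjusted p = 0.0372). The rhythm of Fst, which encodes the activin and BMP antagonist follistatin, had a ratio of 1.94 and a peak at ZT21.2 in WT (adjusted p = 0.00845), and its level was higher in KO than in WT (0.36 ± 0.12, adjusted p = 0.0189).

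Of 29 genes of iron uptake, transport and storage 22 were tested. In KO 3 were higher and 5 lower than in WT, where 30% of all genes were called (16.5% upward, 13.5% downward). In Liver-RE 0 were higher, also at an unadjusted p under 0.05 by limma, and 3 lower, against 1.18% and 5.88% of all genes. The median log2 difference of this list was 0.0025 for KO and -0.07 for Liver-RE, near the all-gene medians of 0.02 and -0.06. Cp, the ferroxidase ceruloplasmin that works with ferroportin, was higher in KO (0.74 ± 0.08, a ratio of 1.67, adjusted p = 4.87e-10), and its difference in Liver-RE was -0.19 ± 0.08 (adjusted p = 0.145). Slc39a8, a metal importer, was higher in KO (0.35 ± 0.06, adjusted p = 3.65e-06). Steap2, a metalloreductase, was lower in KO (-0.51 ± 0.06, adjusted p = 2.37e-10) and in Liver-RE (-0.20 ± 0.06, adjusted p = 0.0199), and Slc25a37, the mitochondrial iron importer mitoferrin, was lower in KO (-0.26 ± 0.07, adjusted p = 0.00410). Rhythms were called for 8 of the 22 genes in WT, where 23.5% of all genes had one. By limma they were called for 0 in KO (1 at an unadjusted p under 0.05) and for 1 in Liver-RE. The shares of all genes were 0% in KO and 3.82% in Liver-RE. Steap3, the ferrireductase of endosomes, peaked at ZT2.16 in WT (ratio 1.94, adjusted p = 3.63e-05) and at ZT18.9 in Liver-RE (ratio 1.63, adjusted p = 0.0106). Lrp1, a receptor that takes up heme bound to hemopexin, peaked at ZT4.57 in WT (ratio 1.55, adjusted p = 0.0182).

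The iron regulatory proteins, which bind the stem-loops printed above, were listed together with related genes, 12 in all with 10 tested. In KO 1 of the 10 was higher and 2 were lower than in WT, a share like the 30% of all genes called. Aco1, which encodes iron regulatory protein 1, was lower in KO than in WT (-0.29 ± 0.06, adjusted p = 4.53e-05) and not called in Liver-RE (adjusted p = 0.982). Fbxl5, the iron-sensing adaptor that marks iron regulatory protein 2 for degradation, was lower in KO (-0.23 ± 0.05, adjusted p = 0.000571), and Cul1, of the same ligase, was higher (0.16 ± 0.05, adjusted p = 0.0103). Ireb2, which encodes iron regulatory protein 2, was the only 1 of the 10 with a rhythm called in WT, where 23.5% of all genes had one. Its ratio was 1.61 and its peak at ZT6.99 (adjusted p = 0.0120). In Liver-RE against WT 1 gene of the list was called, Ciao1, lower, named here after its value was seen, against 7.06% of all genes called.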

How the data were processed

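The authors deposited 1 table of expression values for 54 mouse liver libraries. Its unit was not named there and was taken as FPKM from the values, as deposited by the authors. CASAVA 1.8.2 and mm10 appear in the submitters' processing notes with no role. Aligner, counting tool and gene models: not given in the sources used here. Groups were taken from the labels, 3 mice per time and genotype. Values were analysed as log2(FPKM + 1) for genes with a mean of at least 0.5 FPKM with limma 3.58.1 (R 4.3.3), in a single model of all 54 libraries in which each genotype had its own mean and 24 h cosine curve, moderated with a trend, and p-values were adjusted over all genes tested. The fit was tested on simulated data. The members and gene lists were chosen with earlier results of these data known. Named genes are all 10 members, up to 4 genes of each list with the smallest p in level between KO and WT and up to 3 with the smallest p of a rhythm in WT, among those called, the 8 partners of Hamp, and the 5 genes most like Hamp, Tfrc and Slc40a1. Permutation tests with 100000 resamples (Python 3.11.15, scipy 1.17.1) were two-sided. Transcripts for the stem-loop search were from GENCODE and promoters from RefSeq, both on GRCm38. Depth limits genes near 1 FPKM such as Bmp6 and Smad7. Alternatives were a pseudocount of 0.1, no filter, quantile normalization, removal of the 20 highest genes, a replicate block, a mean per group, fits on the genotypes concerned, a test between the 6 times, and each library left out. Leaving out both libraries in which Arntl stood apart was chosen after seeing the data.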

Additional observations from a re-analysis of the deposited data

Results flagged for a closer look

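The rhythm of Hamp differed between KO and WT livers (limma, adjusted p = 0.0334), which is a difference of the same time contrast between genotypes. The fitted peak was at ZT16.6 in WT and ZT5.25 in KO, and neither rhythm passed the threshold within its genotype (adjusted p = 0.131 and 0.466). The difference was lost without the filter on low values (adjusted p = 0.0536) and without any 1 of 6 libraries (highest adjusted p 0.0798).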

How the results depend on the processing

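No called result reversed direction under any setting run. For single genes, 755 of 774 values under other settings stayed on the same side of the threshold, 11 lost their call and 8 gained one, and with each library left out 5217 of 5292 stayed, 62 lost and 13 gained. Without the filter, Liver-RE against KO had 2 of the 10 genes called in level in place of 4, and the KO against WT rhythm difference had 0 in place of 1. Quantile normalization gave 2 for Liver-RE against KO in level, 2 for the KO against WT rhythm difference and 2 for rhythm in WT. Without the 20 highest genes the counts were 2 for Liver-RE against KO and 2 for rhythm in WT, where Hfe was added in both settings (adjusted p = 0.0300 with quantile normalization and 0.0197 without the 20 highest genes). With only the genotypes concerned, Liver-RE against KO had 2, and with a mean per group the Liver-RE against WT rhythm difference had 1 in place of 0. Leaving out a library in turn gave 5 to 6 for KO against WT in level, 4 each time for Liver-RE against WT, 2 to 5 for Liver-RE against KO, 0 to 1 for the rhythm difference of KO from WT, 0 to 1 for that of Liver-RE from WT and 0 to 1 for rhythm in WT. The causes were not tested.

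Same-numbered libraries of different genotypes correlated in their deviations over 0.1 in 8 of 18 pairs for KO and WT, 6 of 18 for Liver-RE and WT and 11 of 18 for Liver-RE and KO, so not every pair passed 0.1 and the numbers were not taken as pairs. A library correlated best with its own number in 8, 5 and 11 of 18, and whether the number marks a shared batch was not tested. The replicate block changed no count of the 10 genes, moved the count of all genes for KO against WT from 3532 to 3639, and moved r of Hamp with Hamp2 from 0.307 to 0.142.

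Over all genes, Liver-RE against WT had 830 calls in level, 513 with quantile normalization and 477 without the 20 highest genes. Rhythms in Liver-RE numbered 449, 729 with quantile normalization and 191 with only that genotype in the model. Rhythms in KO numbered 0, 2 without the filter and with quantile normalization, 1 with a mean per group, 1 without both libraries in which Arntl stood apart and 6 in the test between times. Differences in rhythm of Liver-RE from KO numbered 28, 7 without the filter, 59 with quantile normalization, 52 without the 20 highest genes, 44 with a mean per group, 49 with only these genotypes and 76 without both libraries in which Arntl stood apart.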

Other observations

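Genes of inflammatory hepcidin control and the acute phase, a list of 25 with 23 tested, were mostly lower where they differed between KO and WT, 10 lower and 2 higher, where 13.5% of all genes were lower and 16.5% higher. Orm2 (-1.24 ± 0.19, adjusted p = 9.08e-07) and Orm1 (-1.02 ± 0.17, adjusted p = 7.53e-06), which encode acute phase glycoproteins, were lower in KO than in WT. In Liver-RE against WT their differences were -0.35 ± 0.19 and -0.17 ± 0.17, and neither was called. Il6st, the shared receptor subunit of the interleukin-6 family, was lower in both KO (-0.28 ± 0.06, adjusted p = 0.000288) and Liver-RE (-0.31 ± 0.06, adjusted p = 0.000681). Itih3 was higher in KO (0.61 ± 0.08, adjusted p = 5.24e-08) and lower in Liver-RE (-0.36 ± 0.08, adjusted p = 0.00446). In WT, 6 of the 23 had a rhythm, a share near the 23.5% of all genes, among them the interleukin-6 receptor Il6ra with a ratio of 2.03 and a peak at ZT15.5 (adjusted p = 0.00903), Il22ra1 with 1.74 at ZT19.5 (adjusted p = 0.00728) and fibrinogen gamma Fgg with 1.61 at ZT3.00 (adjusted p = 0.0126).

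Iron-sulfur cluster genes, 20 tested of 21 listed, were higher in KO in 6 cases and lower in 1. Over all genes 16.5% were higher and 13.5% lower. None of the list was called in Liver-RE against WT by limma, where 1 had an unadjusted p under 0.05 and 7.06% of all genes were called. Gfer, a sulfhydryl oxidase of mitochondria, was higher in KO (0.62 ± 0.07, adjusted p = 3.05e-10), as were Bola1 (0.27 ± 0.07, adjusted p = 0.00128) and Nubpl (0.25 ± 0.06, adjusted p = 0.00271). Rhythms in WT were called for 6 of the 20, where 23.5% of all genes had one. Peaks stood at ZT11.4 for Lyrm4, ZT13.1 for Isca1 and ZT11.5 for Glrx5. In KO, 5 of 25 genes of heme synthesis and breakdown exceeded WT and 4 lay under it, shares near those of all genes. Rhythms were called for 10 of the 25 in WT, where 23.5% of all genes had one. Bach1, a heme-sensing repressor, was lower in KO (-0.56 ± 0.06, adjusted p = 1.61e-11), and had a rhythm in WT (ratio 1.82, peak ZT10.8) and in Liver-RE (ratio 1.36, peak ZT8.64). Alas2, the erythroid enzyme that starts heme synthesis, was higher in KO (0.77 ± 0.12, adjusted p = 7.92e-07) and in Liver-RE (0.73 ± 0.12, adjusted p = 3.85e-05).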
